A study of Mus musculus and Homo sapiens with 32 samples.

Results

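The transcripts followed here encode EGF family ligands and the ErbB receptors they bind: the ligands Egf, Hbegf, Areg, Ereg, Tgfa and Btc, and the receptors Egfr, Erbb2, Erbb3 and Erbb4. They were taken by gene name from a count table of mouse kidneys, which lists 57180 genes, and all 10 were found. All 10 also passed the filter on low counts, as did 19256 genes in all. Pcmt1, the gene altered in these mice, encodes an enzyme that repairs isoaspartyl residues in proteins. The 6 groups were Pcmt1 tKO kidneys after unilateral ureteral obstruction (UUO) with LY2109761, tKO kidneys after UUO with DMSO, tKO kidneys after sham surgery with DMSO, and Pcmt1 fl/fl kidneys under the same 3 treatments. Each group held 3 libraries. UUO is a surgical model of renal fibrosis, and LY2109761 blocks the kinases of TGF-β receptors. The labels do not spell out tKO, name no Cre driver, and give no age, sex, strain, dose or time after surgery. The controls carry the floxed allele, and no wild-type group is among the 6. A table of HK-2 cells and a table of Pcmt1 knockout and wild-type kidneys list 379 and 410 genes, and neither lists any of the 10.

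EGF family ligands are made as membrane-anchored precursors that metalloproteases such as ADAM17 cut free. They bind ErbB receptor tyrosine kinases, which pair up and signal through the RAS-ERK and PI3K-AKT routes. Egf, Tgfa and Areg bind Egfr, while Hbegf, Btc and Ereg bind both Egfr and Erbb4. Erbb2 has no known ligand and acts as a partner of the others, and Erbb3 is a weak kinase that binds neuregulins. In kidney, Egf is known as a product of the thick ascending limb and distal convoluted tubule, and ligands such as Hbegf and Areg are known from injured epithelium.

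Libraries held 13015669 to 19565376 counts. The 13 protein-coding mitochondrial genes took 7.36% to 69.1% of these counts, with the 3 tKO sham libraries at 33.5%, 49.3% and 69.1%. Levels are given as CPM, counts scaled to a fixed TMM-adjusted library size, whose scaling factor ran from 0.3516 to 1.329. Pcmt1 stood at 22.74 to 49.33 CPM in the 9 tKO libraries and at 25.68 to 48.95 CPM in the 9 fl/fl libraries, and edgeR called it in none of the comparisons of genotype. After UUO with DMSO it stood at 24.7 to 26.1 CPM in tKO and 35.3 to 41.4 CPM in fl/fl libraries, without overlap. The log2 fold change there was -0.61 (edgeR adjusted p = 0.0818). With LY2109761 the ranges overlapped, and tKO sham replicates 2 and 3 had 22.74 and 24.32 CPM. Pcmt1 reached 49.33 CPM in the library labelled tKO sham replicate 1, above every fl/fl sham library, so directions drawn from the tKO sham group rest on a label that this gene goes against. Proximal tubule markers summed to 27570 to 44170 CPM in sham kidneys, as the label kidney implies. The labels do not say that replicates came from separate animals, so each p-value reflects only how far these libraries spread, which may be technical.

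Obstructed kidneys held a different mixture of EGF ligand transcripts from sham kidneys. To compare ligands with each other, the deposited FPKM (fragments per kilobase scaled to sequencing depth, by the authors) was used, and each ligand was expressed as its share of the summed FPKM of the 6 ligands in a library. In sham kidneys Egf made up 69.7% ± 2.4 of this sum in tKO and 69.4% ± 9.2 in fl/fl (SD, n = 3 each). After UUO its share was 9.96% ± 1.8 in tKO and 7.94% ± 2.26 in fl/fl kidneys. Egf was thus the leading ligand transcript of every sham library and of no obstructed one.

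Hbegf took the first place after obstruction, with 52.8% ± 4.39 in tKO UUO and 54.2% ± 10.2 in fl/fl UUO kidneys, against 17.2% ± 2.82 in tKO sham and 10.5% ± 1.68 in fl/fl sham kidneys. Areg came second, with 20% ± 4.3 in tKO UUO and 19.8% ± 7.75 in fl/fl UUO kidneys, against 0.427% ± 0.53 in tKO sham kidneys and 0 in fl/fl sham kidneys. In fl/fl UUO+LY2109761 kidneys the share of Areg was 35.8% ± 0.2, above every other group. Tgfa held 11.6% ± 1.43 in tKO UUO and 12.1% ± 4.48 in fl/fl UUO kidneys, against 4.68% ± 3.5 in tKO sham and 5.64% ± 2.04 in fl/fl sham kidneys. As deposited, the summed ligand FPKM overlapped: 10.4 to 15.6 in tKO UUO against 11.3 to 21.9 in tKO sham libraries, and 11.7 to 19.2 in fl/fl UUO against 14.8 to 22.2 in fl/fl sham libraries. That FPKM is scaled to totals that include the mitochondrial counts. Divided by the TMM factors, mean FPKM of Egf was 21.2 in tKO sham against 1.05 in tKO UUO kidneys. In fl/fl it was 17.2 against 0.878. For Hbegf the means were 5.27 against 5.61 in tKO, and 2.48 against 6.51 in fl/fl. The overlap of the sums was not kept under that scaling. A share also depends on the other ligands: with TMM, edgeR called neither Hbegf in tKO nor Tgfa in either genotype after UUO. These shares are a description and were not tested.

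**Figure D1:**
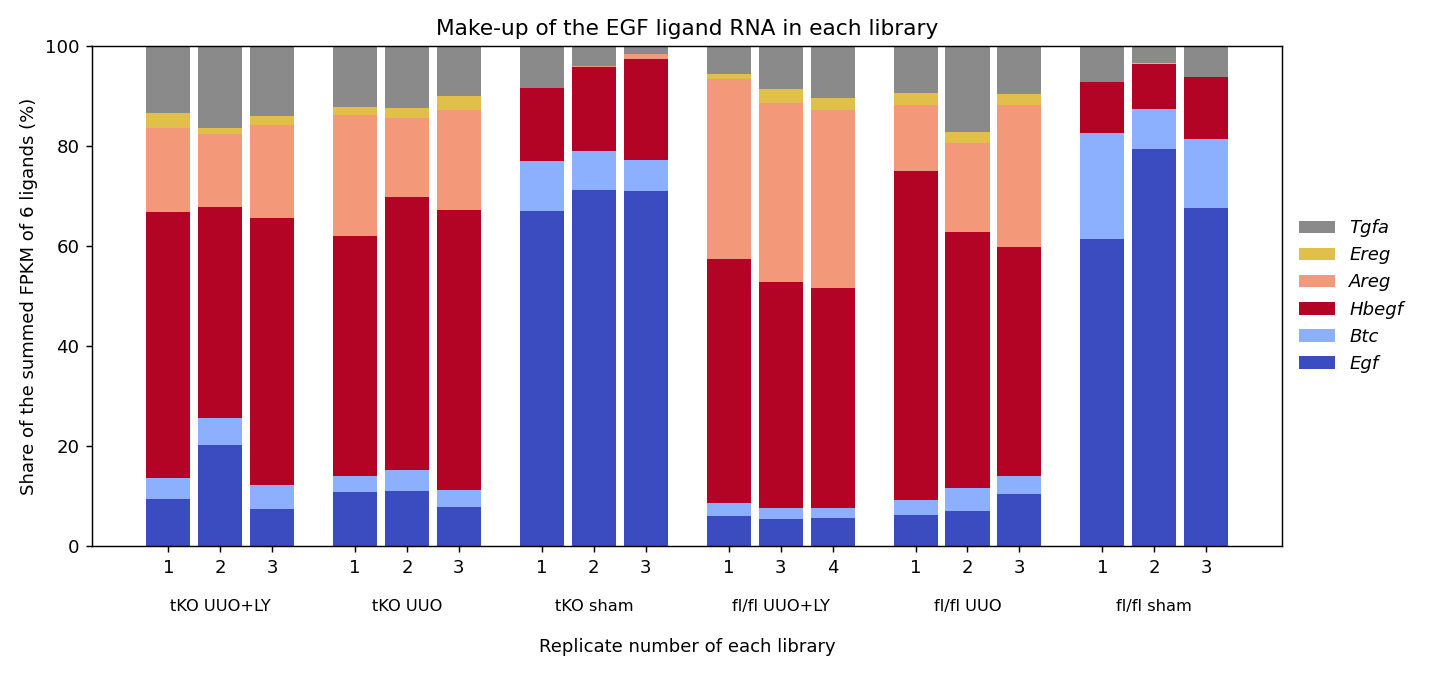
Share of each ligand in the summed FPKM of the 6 ligands, in percent, for each of the 18 libraries, grouped by genotype and treatment (LY is LY2109761). Egf fills 61.3% to 79.4% of the bars of sham kidneys and 5.38% to 20.2% of the bars of obstructed kidneys, where Hbegf fills 42.2% to 65.6%.

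Of the 10 genes, 2 were higher and 3 lower in tKO UUO than in tKO sham kidneys, and 4 were higher and 2 lower in fl/fl UUO than in fl/fl sham kidneys (edgeR, adjusted p under 0.05). Over all 19256 genes tested, 21.6% were called higher and 19.4% lower in the tKO comparison, and 20.9% higher and 18.7% lower in the fl/fl comparison. The median log2 fold change of the 10 was -0.08 in tKO and 0.32 in fl/fl, beside 0.02 in both over all genes tested. Egf and Btc were lower and Areg and Ereg higher in both genotypes, and none of these calls was lost when any 1 library was left out, the library labelled tKO sham replicate 1 included. Scaling by column totals in place of TMM shifts the median of all genes by 1.05 in tKO and 0.74 in fl/fl, so that 11686 genes are called higher and 715 lower in tKO, in place of 4168 and 3729, and 8547 higher and 906 lower in fl/fl, in place of 4031 and 3594. Egf, Btc, Areg and Ereg were called in the same direction there, and of the 10 genes 5 were then higher and 2 lower in tKO. Whole kidneys were sequenced, so fewer cells of a type and less RNA per cell cannot be told apart in any of these values.

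Egf, the founding ligand of the family, lies on GRCm38 chromosome 3, 129677565 to 129755316, minus strand. It stood at 18.8, 13.4 and 14.1 CPM in tKO UUO kidneys, against 260, 342 and 336 CPM in tKO sham kidneys. It had 14.7, 9.85 and 14.4 CPM in fl/fl UUO kidneys, against 212, 362 and 185 CPM in fl/fl sham kidneys. Every obstructed library lay far under every sham library. The log2 fold change was -4.34 (SE 0.42, edgeR adjusted p = 1.7e-06) in tKO and -4.29 (SE 0.42, edgeR adjusted p = 1.8e-06) in fl/fl, a level of 0.0494 and 0.0512 times sham. Between genotypes this effect differed by -0.05 on the log2 scale, with a 95% interval of -1.17 to 1.07. Exons of Egf overlap those of 6330410L21Rik and Gm42697 on the other strand, and the strand setting of the counting is not given in the sources used here, so their reads cannot be told apart.

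Btc, betacellulin, lies on GRCm38 chromosome 5, 91357261 to 91402994, minus strand, and like Egf was lower after UUO. It stood at 2.85, 2.55 and 3.01 CPM in tKO UUO kidneys, against 20.1, 19.4 and 15 CPM in tKO sham kidneys. In fl/fl kidneys it stood at 3.7, 3.25 and 2.52 CPM after UUO, against 37.9, 18.9 and 19.7 CPM after sham surgery. Here too no obstructed library reached a sham library. Its log2 fold change was -2.70 (SE 0.28, edgeR adjusted p = 3.4e-06) in tKO and -3.01 (SE 0.28, edgeR adjusted p = 1.3e-06) in fl/fl. Across the 18 libraries, which share their groups, log2(CPM + 1) of Btc and Egf had a Pearson correlation of 0.95. Within sham groups the 2 genes did not run together. Btc was highest in replicate 1 of each genotype, while Egf was highest in replicate 2.

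Markers of the tubule segments known to make Egf were lower as well. Of 12 markers of the loop of Henle and distal tubule, 9 were lower and 1 higher after UUO in each genotype, with a median log2 fold change of -1.74 in tKO and -1.39 in fl/fl. Their summed level was 1425 to 1756 CPM in tKO UUO against 4097 to 5261 CPM in tKO sham libraries, and 1419 to 1897 CPM in fl/fl UUO against 3704 to 4029 CPM in fl/fl sham libraries. The markers did not move as 1 block, as 4 of them chosen after their values were seen show. Calb1, a calcium-binding protein of the distal tubule, had a log2 fold change of -5.24 in tKO and -4.43 in fl/fl, and Slc12a3, the thiazide-sensitive transporter, -1.91 and -1.27 (edgeR, all called lower). Umod, uromodulin of the thick ascending limb, had 0.29 and 0.08 and was not past the threshold. With column totals 3 of the 12 were called higher in each genotype, Umod among them, and 7 were lower in tKO and 6 in fl/fl. Pvalb was at 0 in every fl/fl UUO library, against 7.39 to 10.2 CPM in fl/fl sham libraries. The part of these cells in the level of Egf was not tested.

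**Figure D2:**
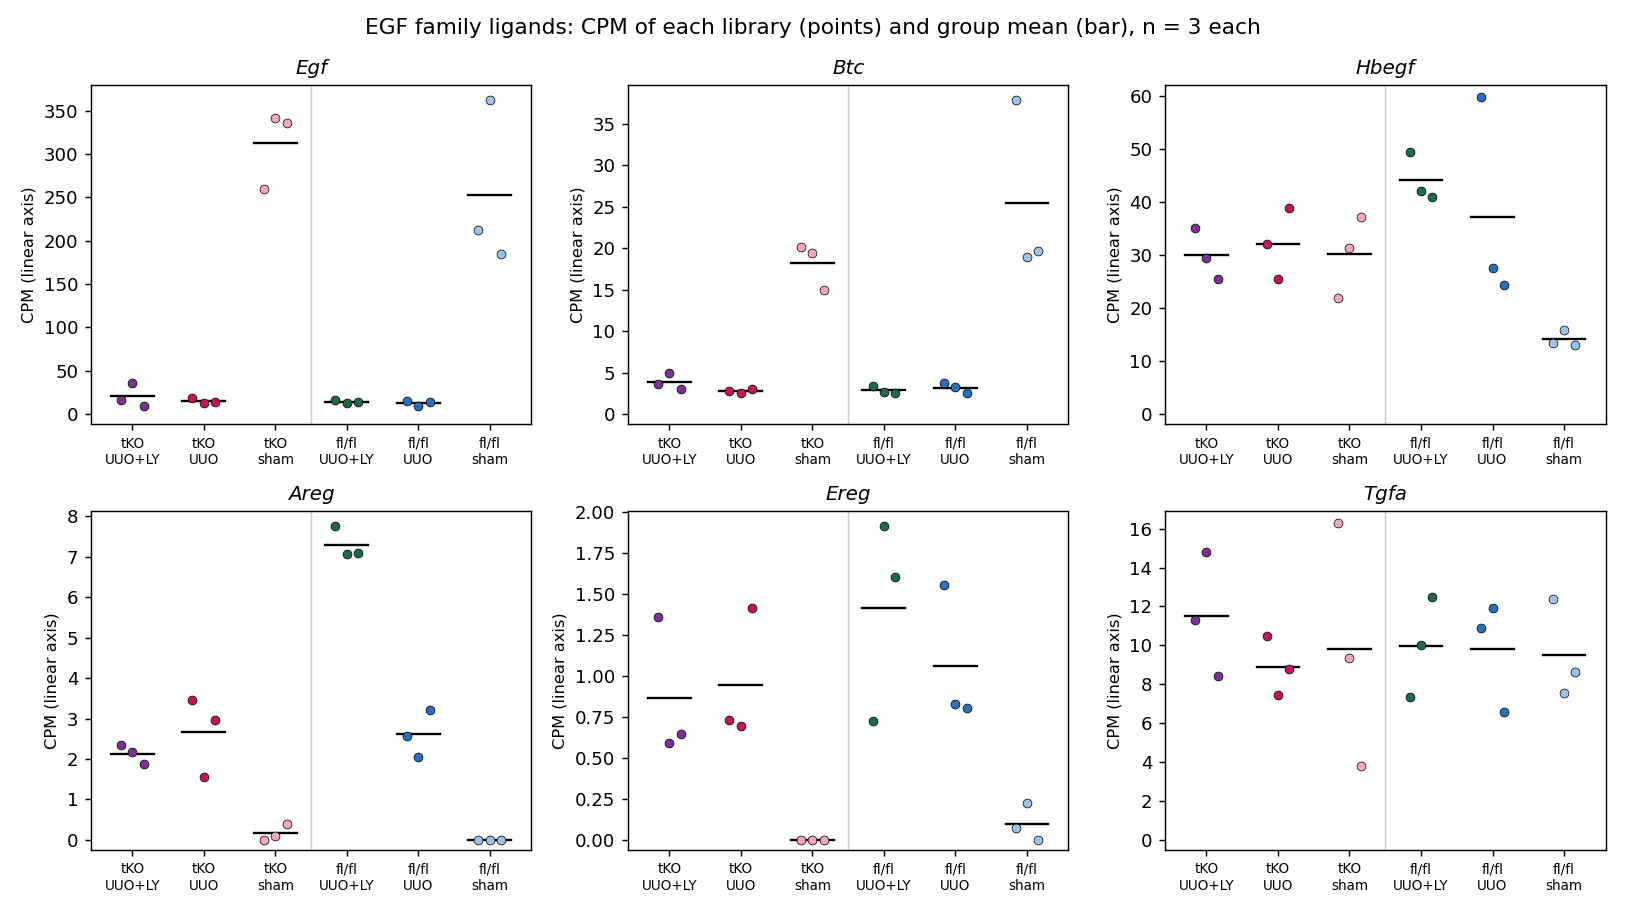
CPM on linear axes for the 6 ligands in the 6 groups of 3 libraries (LY is LY2109761); points are libraries and bars are group means. Egf and Btc are low in all obstructed groups, Areg and Ereg are near 0 in sham kidneys, and Areg stands at 7.06 to 7.75 CPM in fl/fl UUO+LY2109761 kidneys.

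Areg, amphiregulin, was close to undetected in sham kidneys and present in every obstructed one. It is on GRCm38 chromosome 5, 91139599 to 91148432, plus strand. Counts were 85, 36 and 65 in tKO UUO kidneys, against 0, 1 and 2 in tKO sham kidneys, a ratio of 25 with an exact 95% interval of 8.41 to 122. Counts were 60, 42 and 60 in fl/fl UUO kidneys, against 0 in all 3 fl/fl sham kidneys, at least 37.3-fold higher when the group's 0 is set to a floor of 3 counts. Such intervals and floors cover counting error only. In CPM this was 3.46, 1.55 and 2.96 in tKO UUO and 2.58, 2.04 and 3.22 in fl/fl UUO kidneys. The edgeR adjusted p was 6.8e-05 in tKO and 5.9e-06 in fl/fl. With the few tKO sham counts the fitted log2 fold change of 4.48 in tKO depends on the libraries used: leaving out the library labelled tKO sham replicate 1 gave 3.62, and leaving out tKO sham replicate 3 gave 5.72, both called.

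The sequence before and at the start of Areg is printed beside those of Egf and Btc, because the first was higher and the other two were lower after UUO in both genotypes. They are RefSeq promoters of GRCm38.p6, each from 250 bases before to 50 bases after the start site, 5′ to 3′ on the gene's strand. Capitals mark any match, on either strand, to 4 motifs: CRE (TGACGTCA), TATA box (TATAAA), GC box (GGGCGG) and the AP-1 motif (TGANTCA). The windows are chr5:91139349-91139648 (plus) for Areg, chr3:129755273-129755572 (minus) for Egf and chr5:91402945-91403244 (minus) for Btc.
Areg: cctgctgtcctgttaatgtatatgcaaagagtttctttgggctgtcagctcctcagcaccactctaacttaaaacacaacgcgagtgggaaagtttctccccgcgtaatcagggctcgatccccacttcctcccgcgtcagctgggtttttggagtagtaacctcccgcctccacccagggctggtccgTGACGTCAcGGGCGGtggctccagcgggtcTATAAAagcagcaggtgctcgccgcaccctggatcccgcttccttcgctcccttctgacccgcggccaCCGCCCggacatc
Egf: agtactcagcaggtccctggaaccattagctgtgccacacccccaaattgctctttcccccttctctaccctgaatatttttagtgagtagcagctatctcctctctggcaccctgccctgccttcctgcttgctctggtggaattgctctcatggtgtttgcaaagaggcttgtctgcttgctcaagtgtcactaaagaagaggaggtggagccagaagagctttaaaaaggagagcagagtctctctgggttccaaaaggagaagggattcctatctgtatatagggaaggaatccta
Btc: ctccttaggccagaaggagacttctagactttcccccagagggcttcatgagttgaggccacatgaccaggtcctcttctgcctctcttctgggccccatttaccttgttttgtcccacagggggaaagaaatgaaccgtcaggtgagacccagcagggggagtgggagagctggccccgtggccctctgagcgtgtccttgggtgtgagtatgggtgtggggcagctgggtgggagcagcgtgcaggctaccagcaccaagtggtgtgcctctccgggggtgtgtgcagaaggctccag
The Areg window holds a CRE 61 bases before the start site, a TATA box 31 before it, and a GC box 52 before and another 37 after it, while the Egf and Btc windows hold none of the 4 motifs. Among all 32851 promoters of the table, 1.79% hold the CRE, 7.81% the AP-1 motif, 13.6% the TATA box and 35.7% the GC box. Such matches describe the letters and say nothing of which factor binds. Sequences were matched for 7 of the 10 genes, and Hbegf, Ereg and Erbb3 had no entry. Of those not printed, the Erbb2 and Erbb4 windows held none of the 4 motifs, Tgfa held 2 GC boxes and Egfr 1. A further RefSeq window of Egf, chr3:129725037-129725336, also held none.

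Ereg, epiregulin, followed Areg at a lower level. Its GRCm38 position is chromosome 5, 91074622 to 91093646, plus strand, in the same stretch of the chromosome as Areg and Btc. Counts were 18, 16 and 31 in tKO UUO kidneys, against 0 in all 3 tKO sham kidneys, at least 8.73-fold higher (edgeR adjusted p = 0.0013). They were 36, 17 and 15 in fl/fl UUO kidneys, against 1, 3 and 0 in fl/fl sham kidneys, a ratio of 11.7 with an exact 95% interval of 4.38 to 44.3 (edgeR adjusted p = 0.0028). No obstructed library had as few counts as any sham library. In fl/fl the fitted log2 fold change of 3.41 was 4.72 without fl/fl sham replicate 2 and 2.82 without fl/fl sham replicate 3, called in both cases. Exons of Ereg overlap Gm19610 on the other strand.

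Hbegf, heparin-binding EGF-like growth factor, was higher after UUO in fl/fl kidneys. It had 59.7, 27.6 and 24.4 CPM in fl/fl UUO kidneys, against 13.5, 15.9 and 13.1 CPM in fl/fl sham kidneys, with no overlap. The log2 fold change was 1.40 (SE 0.29, edgeR adjusted p = 0.0013). In tKO kidneys it had 32, 25.4 and 38.8 CPM after UUO, against 21.9, 31.4 and 37.1 CPM after sham surgery, and these ranges overlapped. There the log2 fold change was 0.10 (SE 0.29, edgeR adjusted p = 0.8178), with a 95% interval of -0.52 to 0.71, and 1.24 (adjusted p = 0.00178) with column totals, beside their shift of all genes by 1.05. The difference between these effects was -1.30 in log2 units (SE 0.41), with an edgeR adjusted p of 0.19, so a difference between genotypes was not shown. In fl/fl UUO the library with 59.7 CPM, replicate 1, carried part of the change, which was 0.88 without it and still called.

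Tgfa, transforming growth factor alpha, did not pass the threshold in any comparison. It ranged from 7.43 to 10.5 CPM in tKO UUO against 3.79 to 16.3 CPM in tKO sham libraries, and from 6.59 to 11.9 CPM in fl/fl UUO against 7.54 to 12.4 CPM in fl/fl sham libraries. The log2 fold change was -0.17 (95% interval -1.01 to 0.66) in tKO and 0.04 (95% interval -0.78 to 0.87) in fl/fl. The tKO sham libraries alone spread from 19 to 219 counts of this gene. Its exons overlap Gm43917 on the other strand.

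Some lists of markers of other cell types also differed after UUO, beside 21.6% higher and 19.4% lower over all genes in tKO, and 20.9% and 18.7% in fl/fl. Of 12 markers of injured tubule, 10 were higher in tKO and 12 in fl/fl after UUO, with summed levels of 17980 to 22050 CPM in tKO UUO against 1224 to 1668 CPM in tKO sham libraries, and 17520 to 29820 CPM in fl/fl UUO against 941.5 to 1359 CPM in fl/fl sham libraries. Of 12 macrophage and monocyte markers 11 were higher in each genotype, and of 8 T cell markers 7 were. Collecting duct markers, 12 of 12, were lower in each genotype, and 9 of 12 with column totals. Of 9 urothelium markers 0 were called in tKO and 1 was higher in fl/fl. Of 5 podocyte markers 0 were called in tKO and 1 was higher in fl/fl. Of 5 endothelium markers 3 were higher in tKO, and 1 was higher and 1 lower in fl/fl. No marker of these lists was at 0 throughout a group. The part of these cells in the ligand changes was not tested.

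Without obstruction, 1 of the 10 genes was higher and 0 were lower in tKO sham than in fl/fl sham kidneys, beside 5.76% higher and 6.57% lower over all genes tested. That gene was Hbegf, at 21.9, 31.4 and 37.1 CPM in tKO sham against 13.5, 15.9 and 13.1 CPM in fl/fl sham kidneys, with no overlap. Its log2 fold change was 1.08 (SE 0.29, edgeR adjusted p = 0.0284). The call was lost in 5 of the 6 fits that left out 1 library, with adjusted p up to 0.0991, and stood, at 1.27, in the fit that left out the library labelled tKO sham replicate 1. It was also lost with column totals (log2 fold change 0.71, edgeR adjusted p = 0.182), where all genes shift by -0.28 relative to TMM.

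In the fit of all 18 libraries, 4 of 13 genes listed as responsive to ERK were higher and 0 lower in the same tKO sham libraries, beside 5.76% and 6.57% over all genes: Egr1 with a log2 fold change of 3.93 (SE 0.55, edgeR adjusted p = 0.0021), Fos with 3.94 (SE 0.62, 0.0042), Junb with 1.88 (SE 0.3, 0.0044) and Dusp5 with 1.78 (SE 0.39, 0.0133). The first 3 are transcription factors known to be induced early by growth factor or stress signals, and Dusp5 is an ERK phosphatase. Markers of urothelium, the lining of the renal pelvis, were called higher for 4 of 9 in that fit, and stromal markers for 4 of 8. With only the 2 sham groups fitted, an alternative chosen after seeing the data, 0 genes of each of these 3 lists were called, as edgeR then called 6 genes in all. With column totals 3, 0 and 0 were called. Urothelium markers summed to 325.5 to 721.2 CPM in tKO sham against 324.5 to 500 CPM in fl/fl sham libraries, and stromal markers to 453 to 672.9 CPM against 220.7 to 312.7 CPM. The part of these cells, and of the mitochondrial share, in the level of Hbegf was not tested.

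After UUO with DMSO, 0 of the 10 were higher and 1 was lower in tKO than in fl/fl kidneys, beside 8.27% higher and 9.65% lower over all genes. That gene was Egfr, described with the receptors. No ligand passed the threshold, and the log2 difference of tKO UUO from fl/fl UUO was 0.25 for Egf (95% interval -0.55 to 1.05), -0.22 for Hbegf (-0.82 to 0.39), 0.03 for Areg (-0.77 to 0.83) and -0.17 for Btc (-0.76 to 0.41). True differences of any size inside these intervals remain compatible with the data. In a test of whether the effect of obstruction differed between genotypes, edgeR called 0 of the 10 in either direction, beside 0.0104% higher and 0.0312% lower over all genes. At an unadjusted p under 0.05, that test returned 4 of the 10 (Hbegf, Areg, Egfr and Erbb3), and DESeq2 called 0. No share over all genes was taken at that unadjusted limit, so the 4 cannot be set beside the shares above.

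LY2109761 was followed by higher Areg in fl/fl kidneys. Of the 10 genes, 1 was higher and 1 lower in fl/fl UUO+LY2109761 than in fl/fl UUO kidneys, beside 2.52% higher and 2.62% lower over all genes. Areg stood at 7.75, 7.06 and 7.08 CPM in fl/fl UUO+LY2109761 kidneys, against 2.58, 2.04 and 3.22 CPM in fl/fl UUO kidneys, from 150, 107 and 146 counts against 60, 42 and 60. The 3 inhibitor libraries were close together and all above the others. The log2 fold change was 1.48 (SE 0.37, edgeR adjusted p = 0.0385). It lay between 1.33 and 1.65 when each library was left out in turn, but the call was lost in 5 of these 6 fits (adjusted p up to 0.144). It was also lost when only the 2 groups were fitted (1.46, edgeR adjusted p = 0.0583).

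In tKO kidneys the inhibitor was not followed by a called change in any of the 10 genes. edgeR called 0 higher and 0 lower in tKO UUO+LY2109761 against tKO UUO kidneys, beside 0.0831% higher and 0.0883% lower over all genes, and DESeq2 also called 0. At an unadjusted p under 0.05, where no share over all genes was taken, there was 1, Egfr. Areg stood at 2.35, 2.17 and 1.88 CPM in tKO UUO+LY2109761 kidneys, against 3.46, 1.55 and 2.96 CPM in tKO UUO kidneys. Its log2 fold change was -0.32 (95% interval -1.12 to 0.49). The difference of the inhibitor's effect between genotypes was itself tested: of the 10 genes, 2 were higher and 1 lower, beside 7.05% higher and 6.8% lower over all genes. For Areg it was -1.80 (SE 0.52, edgeR adjusted p = 0.0379), a call lost in 10 of the 12 fits that left out 1 library, and the other 2 genes were receptors. With the inhibitor, 0 of the 10 were higher and 1 was lower in tKO than in fl/fl kidneys, beside 0.888% higher and 2.09% lower over all genes. That gene was Areg, with a log2 fold change of -1.77 (SE 0.37, edgeR adjusted p = 0.0277), lost in 4 of 6 fits that left out 1 library (adjusted p up to 0.131).

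Urothelium markers summed higher in the same fl/fl libraries. Of 9 markers, 3 were higher and 0 lower in fl/fl UUO+LY2109761 than in fl/fl UUO kidneys: Upk1b with a log2 fold change of 2.32 (edgeR adjusted p = 0.0349), Upk2 with 2.64 (0.026) and Upk3a with 2.86 (0.0497), all uroplakins of the urothelial surface. The 9 summed to 558.1, 1035 and 688.5 CPM in fl/fl UUO+LY2109761, against 359.8, 460.3 and 285.3 CPM in fl/fl UUO kidneys. These 3 calls were lost with column totals and with only the 2 groups fitted. In tKO sham libraries the 9 summed to 629.8, 721.2 and 325.5 CPM, and Areg had 0, 1 and 2 counts. Krt7 alone was at 252 to 408 CPM in tKO sham and 317 to 410 CPM in fl/fl UUO+LY2109761 libraries. Krt5 was at 2.19 to 50.3 CPM in tKO sham and 84.3 to 137 CPM in fl/fl UUO+LY2109761 libraries, without overlap. The ranges of the other markers overlapped between these 2 groups. In tKO UUO+LY2109761 kidneys, where Areg was lower than in fl/fl, the sum was 334.9 to 667.7 CPM. The median log2 fold change of the 9 against fl/fl UUO+LY2109761 was -0.53, and 0 of the 9 were called. Over all genes that comparison called only 0.888% higher and 2.09% lower, so 0 of 9 does not show that these markers were alike. Mitochondrial genes took 12% to 16.2% of counts in fl/fl UUO+LY2109761 and 7.36% to 7.59% in fl/fl UUO libraries. The part of urothelial cells or of the mitochondrial share in the level of Areg in obstructed kidneys was not tested.

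**Figure D3:**
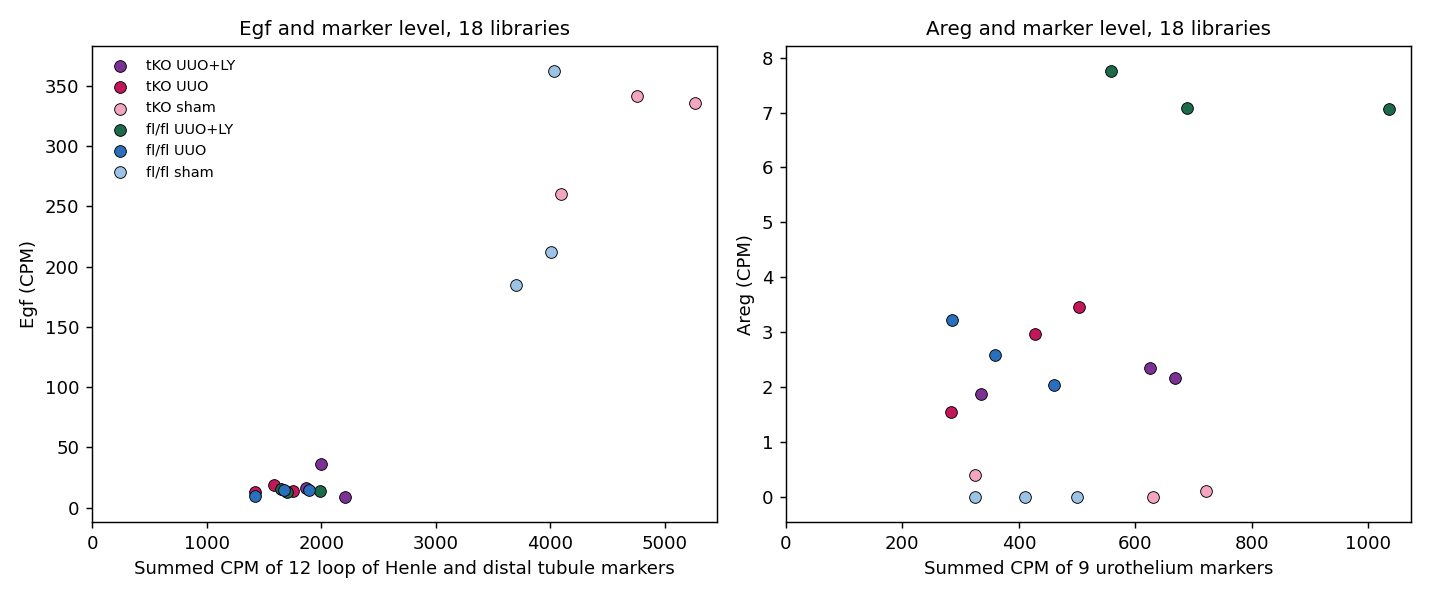
Left, CPM of Egf against the summed CPM of 12 loop of Henle and distal tubule markers; right, CPM of Areg against the summed CPM of 9 urothelium markers, 18 libraries each (LY is LY2109761). Obstructed libraries sit low on both axes at left; at right the 3 fl/fl UUO+LY2109761 libraries sit between 558.1 and 1035 CPM of markers and above 7 CPM of Areg. The 3 tKO sham libraries hold 0 to 2 Areg counts at 325.5 to 721.2 CPM of markers.

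No other ligand passed the threshold with LY2109761 against UUO with DMSO. Egf stood at 16, 36.4 and 9.12 CPM in tKO UUO+LY2109761 kidneys, with a log2 fold change of 0.41 (95% interval -0.38 to 1.20) against tKO UUO, and -0.31 without tKO UUO+LY2109761 replicate 2. In fl/fl UUO+LY2109761 it stood at 15.9, 12.9 and 13.6 CPM, with 0.12 (95% interval -0.68 to 0.93) against fl/fl UUO. For Hbegf the log2 fold change was -0.10 (-0.70 to 0.51) in tKO and 0.24 (-0.36 to 0.85) in fl/fl. Set against sham, which the comparisons of UUO with DMSO also use as their control, 2 of the 10 were higher (Areg and Ereg) and 2 lower (Egf and Btc) in tKO UUO+LY2109761, beside 20.8% and 19% over all genes. In fl/fl UUO+LY2109761 against the same fl/fl sham libraries 3 were higher (Hbegf, Areg and Ereg) and 3 lower (Egf, Btc and Erbb3), beside 22.4% and 19.6%. With column totals the split of the 10 was 5 higher and 2 lower in each of these comparisons, and Erbb3 in fl/fl, at -0.69 with TMM, was -0.03 (adjusted p = 0.932). With TMM Areg in fl/fl UUO+LY2109761 was at least 105-fold higher.

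All called log2 fold changes of receptors were under 1 in size. By FPKM, Erbb2 and Erbb3 led in every group, Egfr came next and Erbb4 last. In tKO UUO kidneys Erbb2 had 21.3 ± 0.529, Erbb3 14.4 ± 2.76, Egfr 5.91 ± 0.317 and Erbb4 1.39 ± 1.21 FPKM (SD, n = 3). In fl/fl UUO kidneys Erbb2 had 19.3 ± 1.32, Erbb3 18.6 ± 1.79, Egfr 9.07 ± 0.948 and Erbb4 1.1 ± 0.165 FPKM. Erbb2 and Erbb3 did not differ beyond their spread in fl/fl UUO, nor in tKO sham (10.6 ± 5.51 and 10.8 ± 4.84 FPKM) or fl/fl sham kidneys (10.6 ± 1.7 and 12 ± 2.98 FPKM).

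Egfr lies on GRCm38 chromosome 11, 16752203 to 16918158, plus strand. It had 57.3, 57.4 and 55.9 CPM in tKO UUO kidneys, against 65.9, 68.3 and 59 CPM in tKO sham kidneys, and 104, 81.9 and 82.1 CPM in fl/fl UUO kidneys, against 55.8, 65.4 and 64.6 CPM in fl/fl sham kidneys. Every fl/fl UUO library was above every fl/fl sham library. The log2 fold change was 0.53 in fl/fl (SE 0.16, edgeR adjusted p = 0.0159) and -0.18 in tKO (SE 0.16, edgeR adjusted p = 0.3979), where column totals turned it to 0.86 (adjusted p = 0.0139) as they shifted all genes by 1.05. The fl/fl call was lost without fl/fl UUO replicate 1 (0.41) and without fl/fl sham replicate 1 (0.46). Between genotypes after UUO, Egfr was lower in tKO by a log2 fold change of -0.65 (SE 0.16, edgeR adjusted p = 0.0139), a call lost without fl/fl UUO replicate 1 (-0.53, adjusted p = 0.0751).

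Proximal tubule markers were lower for 4 of 12 in tKO UUO against fl/fl UUO kidneys (summed 5209 to 7425 against 5365 to 8848 CPM), macrophage markers higher for 4 of 12 (1405 to 2986 against 1106 to 1302 CPM; 1 of 12 with column totals) and stromal markers higher for 3 of 8 (2469 to 4077 against 1316 to 1553 CPM). The mitochondrial share was 9.79% to 16% in tKO UUO and 7.36% to 7.59% in fl/fl UUO libraries. Their part in the lower Egfr was not tested. With the inhibitor Egfr stood at 71.7, 71.1 and 93.4 CPM in tKO and 56.4, 63.6 and 87.1 CPM in fl/fl kidneys. Against UUO with DMSO the log2 fold change was 0.47 in tKO (SE 0.16, edgeR adjusted p = 0.1567) and -0.37 in fl/fl (SE 0.16, edgeR adjusted p = 0.1839), neither past the threshold, although the change in fl/fl became a call without fl/fl UUO+LY2109761 replicate 4 (-0.58). The difference between these was past it, at 0.84 (SE 0.23, edgeR adjusted p = 0.0252), and was lost in 6 of the 12 fits that left out 1 library.

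Erbb3, on GRCm38 chromosome 10, 128567523 to 128589652, minus strand, was lower in single comparisons of each genotype. It had 77.9, 55.1 and 70.2 CPM in tKO UUO kidneys, against 106, 114 and 91.1 CPM in tKO sham kidneys, with no overlap. Erbb3 had a log2 fold change of -0.61 there (SE 0.16, edgeR adjusted p = 0.0058), which turned to 0.42 with column totals (adjusted p = 0.215). In fl/fl it had 82.6, 91.5 and 93.7 CPM after UUO, against 80, 91.2 and 117 CPM after sham surgery, overlapping, with a log2 fold change of -0.10 (95% interval -0.44 to 0.23). The inhibitor groups were at 79.1, 80.3 and 82.9 CPM in tKO and 60.2, 50.8 and 66.7 CPM in fl/fl. In fl/fl this was a log2 fold change of -0.59 against UUO with DMSO (SE 0.16, edgeR adjusted p = 0.043), lost in 5 of 6 fits that left out 1 library. In tKO it was 0.25 (95% interval -0.08 to 0.59). The difference of these effects was 0.84 (SE 0.22, edgeR adjusted p = 0.0226), lost in 3 of 12 such fits.

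Erbb2 did not pass the threshold in any comparison with TMM scaling. It lies on GRCm38 chromosome 11, 98412470 to 98437716, plus strand, where its exons overlap Mien1 on the other strand. Group means ran from 95.9 ± 16.1 CPM in fl/fl sham to 113 ± 2.65 CPM in tKO UUO kidneys (SD, n = 3 each). The log2 fold change of UUO against sham was 0.01 (95% interval -0.35 to 0.37) in tKO and 0.12 (-0.24 to 0.48) in fl/fl. With column totals it was 1 (adjusted p = 0.00986) and 0.86 (adjusted p = 0.0294), beside the shift of all genes by 1.05 and 0.74.

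**Figure D4:**
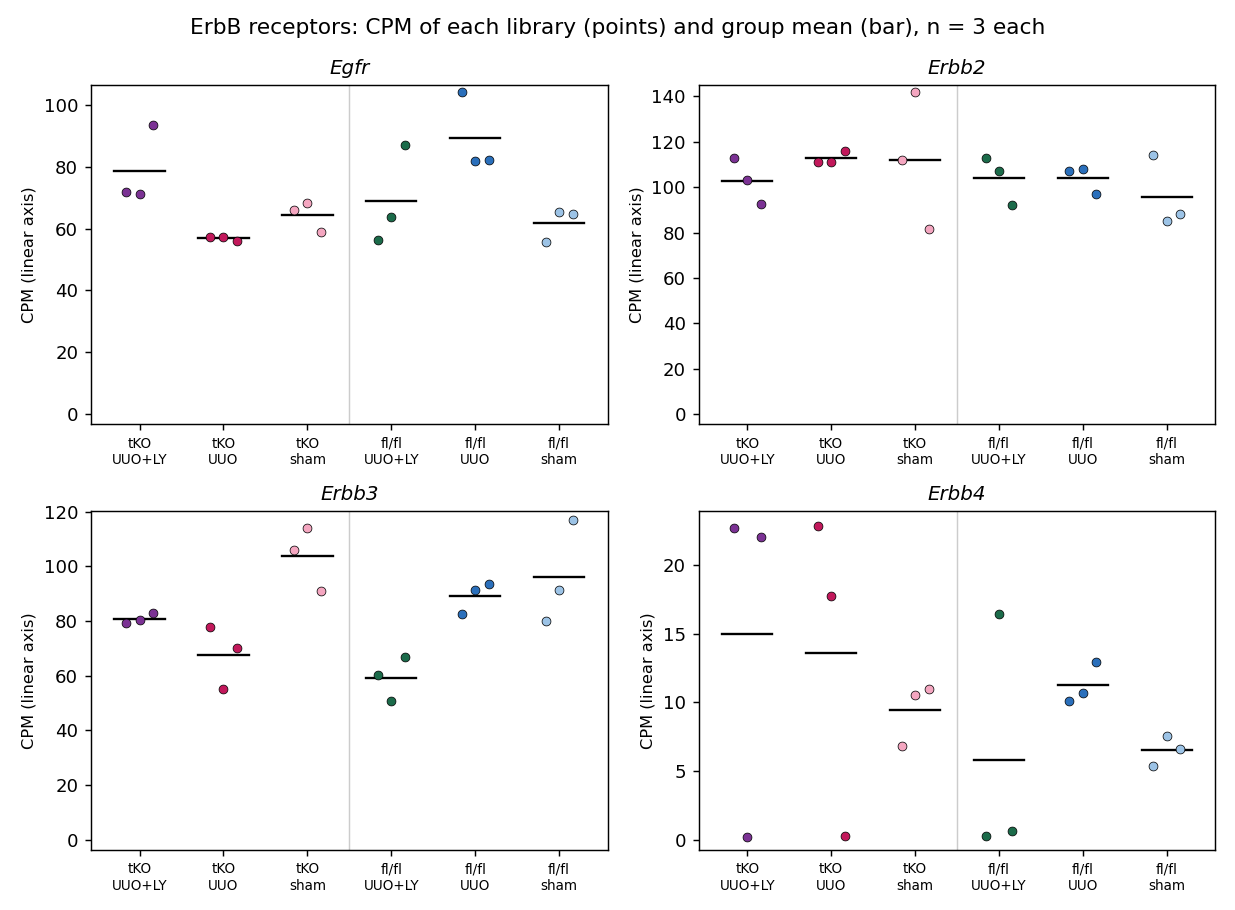
CPM on linear axes for the 4 receptors in the 6 groups of 3 libraries (LY is LY2109761); points are libraries and bars are group means. Egfr and Erbb3 differ between single groups, Erbb2 has group means of 95.9 to 113 CPM, and Erbb4 is near 0 in 4 of the 12 obstructed libraries.

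Erbb4, a receptor for neuregulins, Hbegf, Btc and Ereg on GRCm38 chromosome 1, 68032186 to 69108059, minus strand, fell into separate levels among libraries of the same group. Counts were 482, 5 and 410 in tKO UUO+LY2109761 kidneys, 559, 409 and 7 in tKO UUO kidneys and 92, 101 and 55 in tKO sham kidneys. They were 5, 248 and 14 in fl/fl UUO+LY2109761 kidneys, 234, 220 and 241 in fl/fl UUO kidneys and 76, 102 and 103 in fl/fl sham kidneys. So 4 obstructed libraries had 5 to 14 counts while the other 14 libraries had 55 or more. The 4 came from 3 of the groups, and their library totals were 15955293 to 17966185 counts.

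No comparison called Erbb4. Its log2 fold change after UUO was 0.54 in tKO (SE 1.3, edgeR adjusted p = 0.7758) and 0.78 in fl/fl (SE 1.3, edgeR adjusted p = 0.6744), and all groups share 1 estimate of spread in this fit, the 4 low libraries included. In fl/fl, where no library was low, every UUO library was above every sham library, at 10.1, 10.7 and 12.9 CPM against 5.4, 7.54 and 6.62 CPM. With only these 2 groups in the fit, the same log2 fold change of 0.78 was past the threshold (edgeR adjusted p = 0.0163). Against fl/fl UUO, the value in fl/fl UUO+LY2109761 kidneys was -0.98 (edgeR adjusted p = 0.7108), and -4.55 without replicate 3. Erbb4 was the 1 gene among 19256 whose highest CPM in the 4 libraries was under 20% of its lowest CPM in the other 14, with limits chosen after its values were seen. Ncoa3, a nuclear receptor coactivator and the gene most like Erbb4 across libraries (Pearson r = 0.768), had 193 to 347 counts in the 4 libraries, but also 221 in tKO sham replicate 2 and 400 in fl/fl UUO+LY2109761 replicate 3, where Erbb4 was not low.

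**Figure D5:**
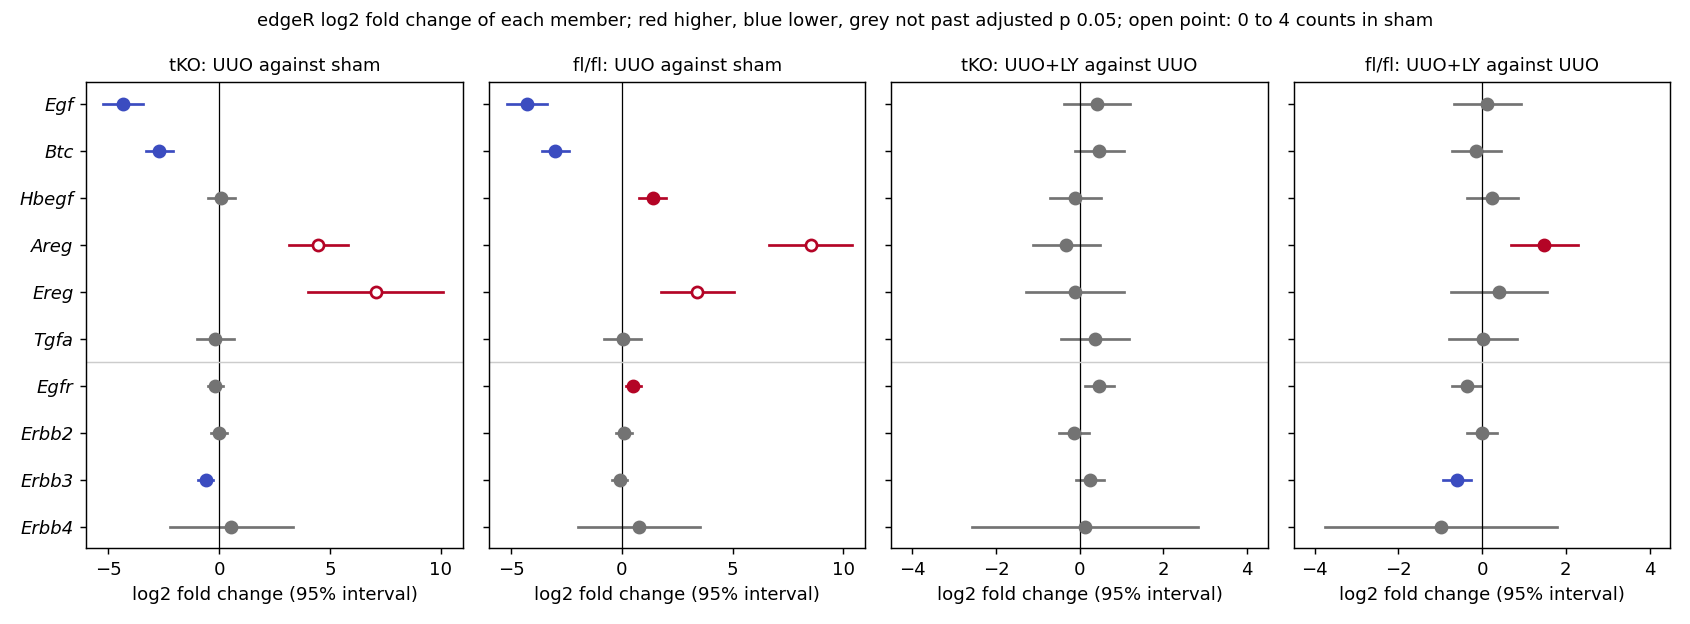
edgeR log2 fold change (points) with 95% intervals (lines) for the 10 genes, for UUO against sham and UUO+LY2109761 (LY) against UUO in each genotype; red is higher, blue lower and grey not past an adjusted p of 0.05. Open points mark genes with 0 to 4 counts in the sham group, whose fitted values depend on those few counts; Egf and Btc are lower and Areg and Ereg higher in both genotypes.

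Other genes of the pathway were read from lists chosen with earlier results of these data known. Among ligands outside the family of 10, Nrg1, a neuregulin that binds Erbb3 and Erbb4, had a log2 fold change of 1.44 in tKO and 1.97 in fl/fl after UUO, and Nrg4 of -1.19 and -1.24, all called. Nrg2 was not called in either genotype, and Epgn and Nrg3 were too low to test. Of 7 genes for release of ligands, 2 were higher in tKO and 4 in fl/fl, and 0 were lower. The counts of this and the next lists stand beside 21.6% higher and 19.4% lower over all genes in tKO, and 20.9% and 18.7% in fl/fl. Rhbdf2, which brings ADAM17 to the surface, had a log2 fold change of 1.29 (edgeR adjusted p = 4.7e-05) in tKO and 1.76 (3e-06) in fl/fl. The protease Adam12 had 2.20 and 2.23, both called, while Rhbdf1, a relative of Rhbdf2, had 0.33 (0.0856) and 0.65 (0.0024), and the rhomboid protease Rhbdl2 0.55 (0.0594) and 0.75 (0.015). Adam17 itself, named after its values were seen, had 0.23 (0.7692) in tKO and -0.54 (0.4545) in fl/fl.

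Of 13 inhibitors of the receptors or of RAS-ERK signalling below them, 4 were higher and 2 lower in tKO, and 5 were higher and 0 lower in fl/fl. With only the groups compared, the 5 called higher in fl/fl were Spry1, Spry2, Spry4, Spred1 and Spred2, all Spry and Spred genes. In tKO that fit called Cbl, Spry1 and Spred1 higher and Errfi1 and Lrig2 lower. These genes of that fit were listed after their values were seen. Spry1, an inhibitor of RAS-ERK signalling, had a log2 fold change of 1.20 in tKO and 1.61 in fl/fl, and its relatives Spred1 0.97 and 1.08 and Spred2 0.49 and 0.94, all called by edgeR. Spry4 had 0.58 (edgeR adjusted p = 0.0792) in tKO and 1.15 (0.0016) in fl/fl. Errfi1, which blocks the Egfr kinase and was named after its values were seen, was lower in tKO at -0.78 (edgeR adjusted p = 0.0125) and stood at 0.01 (0.9793) in fl/fl. Of 22 signal transducers, 5 were higher and 4 lower in tKO, and 9 were higher and 2 lower in fl/fl, and the tKO shares were near those of all genes. Stat3, a transcription factor downstream of cytokine and ErbB receptors, had 1.21 in tKO and 1.65 in fl/fl, both called. The PI3K-AKT genes Pik3r1, with 1.12 and 0.95, and Akt1, with 0.80 and 0.97, were called higher in each genotype, and the ERK pathway kinase Map2k2 lower, at -0.71 and -0.87. Of 13 genes responsive to ERK, 5 were higher and 1 lower in tKO, and 8 were higher and 1 lower in fl/fl. Fosl1, an AP-1 subunit, had 5.27 and 7.03, Junb 1.39 and 3.04, and Myc 1.34 and 2.74, all called. Ccnd1, cyclin D1, was lower at -0.60 and -0.40. Egr1 had 4.41 (edgeR adjusted p = 1.8e-05) in fl/fl and 0.81 (0.1962) in tKO. The median of this last list was 0.66 in tKO and 1.40 in fl/fl, beside 0.02 over all genes tested. With column totals, which shift all genes by 1.05 in tKO and 0.74 in fl/fl, 19 signal transducers were higher and 0 lower in tKO, and 11 and 0 in fl/fl. Inhibitors were then higher for 9 in tKO and 7 in fl/fl, genes for release for 6 and 5, and ERK-responsive genes for 11 and 12, with 0 lower in any of these lists, so every call of a lower gene in them was lost, as was that of Nrg4.

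The genes whose log2(CPM + 1) across the 18 libraries ran most like each ligand were found among tested genes with a mean of at least 5 CPM, as a description over libraries that share their groups. For Egf they were S100g (Pearson r = 0.983), Afm (0.983) and Wnk4 (0.98), and for Btc Mcoln3 (0.982), Arhgef37 (0.982) and Rab11fip4 (0.977). For Hbegf they were Btg2 (0.9) and the immediate early genes Fos (0.897) and Egr1 (0.893). Areg ran with Cldn3 (0.946), Pvr (0.945) and Shisa4 (0.944), Ereg with Sbno2 (0.939), Map3k6 (0.931) and Itpkc (0.929), and Tgfa with Cdh1 (0.855), Gpr39 (0.84) and Slc7a1 (0.832). Among receptors the closest were Dkc1 for Egfr (0.891), Plekhh3 for Erbb2 (0.908) and Gm12576 for Erbb3 (0.903). Btc and Erbb3 correlated with Egf at 0.95 and 0.62, Areg and Ereg with each other at 0.86, and Tgfa with no other of the 10 above 0.43.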

How the data were processed

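Whole-kidney mRNA libraries were made with an ABclonal kit from TRNzol extracts, per the labels' protocols. fastp, HISAT2, StringTie and GRCm38/mm10 are named without versions or roles in the submitters' processing notes. How reads were counted, on which annotation and with which strand setting is not given in the sources used here. Per gene and library, the authors deposited a count and an FPKM value. Counts of all 57180 genes were used as deposited, in 18 libraries of 6 groups with 3 each. FPKM as deposited was used only to compare levels between genes and to sum the ligands or receptors of a library.

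Genes were filtered with filterByExpr (19256 tested) and fitted together with edgeR 4.0.16 in R 4.3.3 (TMM scaling, CPM on the scaled library size, quasi-likelihood test, 12 residual degrees of freedom, common biological coefficient of variation 0.283). Adjusted p is Benjamini-Hochberg over all genes tested, with a threshold of 0.05. The standard error is the log2 fold change over the square root of F. A group at 0 counts was set to a floor of 3 counts, and ratios of few counts have exact binomial 95% intervals. The procedure was tested on simulated data. limma 3.58.1 was loaded by edgeR. Alternatives were RLE factors, column totals, mitochondrial genes left out, no filter, DESeq2 1.42.0, only the groups compared, a replicate block, and each library left out. The lists were also counted with column totals and with only the groups compared, which was chosen after seeing the data.

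All 10 genes are named in each comparison, with up to 4 genes of each pathway list by p in fl/fl UUO against fl/fl sham and the 3 genes most like each of the 10. A gene that this rule names is not reported here. The genes and lists were chosen with earlier results of these data known. Gene positions are from GENCODE M21 on GRCm38. Only 2.78% of 51933 matched genes have the same positions in the deposited table, so its positions are not printed. Tables of HK-2 cells and of Pcmt1 knockout kidneys list none of the 10 and were not used.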

Additional observations from a re-analysis of the deposited data

Results flagged for a closer look

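The effect of LY2109761 in obstructed kidneys differed between tKO and fl/fl for 3 of the 10 genes, by edgeR's test of the difference itself. For Areg the log2 change in tKO minus that in fl/fl was -1.80, from -0.32 in tKO and 1.48 in fl/fl. All 3 fl/fl inhibitor libraries lay above all 3 fl/fl DMSO libraries, which are the same libraries that enter this contrast. For Egfr it was 0.84, from 0.47 in tKO and -0.37 in fl/fl. For Erbb3 it was 0.84, from 0.25 in tKO and -0.59 in fl/fl. Over all genes tested, this contrast called 7.05% higher and 6.8% lower, and DESeq2 also called the 3 genes. With column totals 0 of the 3 were called. Areg lost its call with a replicate block (-1.62, edgeR adjusted p = 0.0979). Among the 12 fits that left out 1 library, the call was lost in 10 for Areg, in 6 for Egfr and in 3 for Erbb3. With groups of 3, no test for a library far from its group was made.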

How the results depend on the processing

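The 29 calls made over the 11 comparisons kept their direction and their side of the threshold with RLE factors, with DESeq2 and with mitochondrial genes left out. Scaling by column totals moved the results most, and it shifts the median of all genes by 1.05 in tKO UUO and 0.74 in fl/fl UUO against sham. It turned 3 log2 fold changes: Egfr in tKO UUO against tKO sham to 0.86, against -0.18, Erbb3 there to 0.42, against -0.61, and Erbb2 in tKO UUO+LY2109761 against tKO sham to 0.81, against -0.12. The number of the 10 genes called went to 0 with column totals in tKO sham against fl/fl sham (1 as reported), in tKO UUO against fl/fl UUO (1), in tKO against fl/fl UUO+LY2109761 (1), in fl/fl UUO+LY2109761 against fl/fl UUO (2) and in the difference of the LY2109761 effects (3), and to 7 in tKO UUO+LY2109761 against tKO sham (4). With no filter on low counts it was 0 in tKO sham against fl/fl sham, 0 in fl/fl UUO+LY2109761 against fl/fl UUO and 1 in the difference of the LY2109761 effects. With only the groups compared it was 0 in the first and second of these. The cause of these moves was not tested.

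Leaving out 1 library at a time gave 5 to 6 called genes of the 10 in fl/fl UUO against fl/fl sham, 5 in tKO UUO against tKO sham, 0 to 2 in tKO sham against fl/fl sham, 0 to 1 in tKO UUO against fl/fl UUO, 0 to 1 in tKO against fl/fl UUO+LY2109761, 0 to 2 in fl/fl UUO+LY2109761 against fl/fl UUO and 0 to 3 in the difference of the LY2109761 effects. The 2 in sham kidneys were Hbegf and Areg (4.96), without the library labelled tKO sham replicate 1. Egf in tKO UUO+LY2109761 against tKO sham was -3.93, and -4.63 without tKO UUO+LY2109761 replicate 2.

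Replicate numbers did not pair the libraries: over 24 same-numbered pairs, the correlation of deviations from group means ran from -0.14 to 0.2, and 4 libraries correlated best with their own number. With a replicate block, 0 of the 10 genes were called in tKO against fl/fl UUO+LY2109761 (Areg -1.62, adjusted p = 0.102) and 0 in fl/fl UUO+LY2109761 against fl/fl UUO (Areg 1.37, adjusted p = 0.0914; Erbb3 -0.70, adjusted p = 0.0566). Areg also lost its call in the difference of the LY2109761 effects (-1.62, adjusted p = 0.0979). The block changed no other call of the 10.

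Over all genes, calls as reported and with column totals were 7897 and 12401 in tKO UUO against tKO sham, 7662 and 11563 in tKO UUO+LY2109761 against tKO sham (4002 higher and 3660 lower, then 10932 and 631), 2375 and 292 in tKO against fl/fl sham (1109 and 1266, then 70 and 222), 3451 and 682 in tKO against fl/fl UUO, 573 and 23 in tKO against fl/fl UUO+LY2109761 (171 and 402, then 11 and 12), 991 and 25 in fl/fl UUO+LY2109761 against fl/fl UUO, 33 and 3 in tKO UUO+LY2109761 against tKO UUO (16 and 17, then 1 and 2), 8 and 0 in the difference of obstruction effects, and 2666 and 289 in that of LY2109761 effects. In fl/fl UUO+LY2109761 against fl/fl sham the split of 4309 higher and 3776 lower became 8017 and 991. Without a filter, the counts became 1529 in sham, 222 between genotypes and 360 in fl/fl with LY2109761, 13 in tKO with it, and 1624 for the difference. With only the groups compared they were 6 in sham, 237, 54 and 13 in the next 3. DESeq2 called 1486, 2055 and 945 in these 3, and 431 for the difference of obstruction effects. The block gave 221 between genotypes with LY2109761 and 6 in tKO with it, where leaving out mitochondrial genes gave 29 higher and 19 lower. With only the groups compared, no total of higher and lower calls of a pathway list after UUO moved by over 1.5 times. By direction, lower signal transducers went from 4 to 1 in tKO and from 2 to 4 in fl/fl. Lower genes responsive to ERK went from 1 to 0 in fl/fl. Depth limits Areg and Ereg in sham kidneys, where 0 to 3 counts were found per library.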
